A study of Saccharomyces cerevisiae with 22 samples.

Results

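The transcripts described here are those of the hexose transporters HXT1 to HXT7, the glucose sensors SNF3 and RGT2 and the glucose-signalling regulator MTH1 of Saccharomyces cerevisiae, 10 genes chosen by their symbols in the array's probe annotation. A probe was listed for 8 of them, among 5326 probes with a gene symbol. HXT3 and HXT7 had none and were not analysed here. By their systematic names in the RefSeq gene table of assembly R64, the measured genes were HXT1 (YHR094C), HXT2 (YMR011W), HXT4 (YHR092C), HXT5 (YHR096C), HXT6 (YDR343C), SNF3 (YDL194W), RGT2 (YDL138W) and MTH1 (YDR277C). HXT6 and HXT7 are nearly identical genes, so the HXT6 probe may also have measured HXT7 transcripts, and probe sequences were not used here.

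Every sample was the wild-type laboratory strain BY4742 (mating type alpha) in synthetic complete medium with glucose. For heat shock, cells grown at 30 °C were pelleted and taken up in medium at 37 °C, and cells were collected after 5, 15, 30, 45 and 60 min. For cold shock, cells grown at 37 °C were moved in the same way to medium at 30 °C and collected after 5, 15, 30, 45 and 60 min, with a sample at 0 min that is called the 37 °C culture below. Each of the 11 conditions was hybridised on 2 arrays, called a (sample labelled with Cy3) and b (sample labelled with Cy5). The other channel of both held a common reference, RNA of untreated BY4742 from 1 large culture grown in a plate reader. Heat shock was set against this reference, since no heat shock sample at 0 min was analysed here, and cold shock against the 37 °C culture. Pelleting and new medium were part of both shifts and, against the untreated reference, cannot be told apart from the change of temperature. The same holds for any difference between the sampled cultures and the separate culture that gave the reference. Whether the 0 min sample of cold shock was taken before or after these steps is not given in the sources used here, so the 37 °C culture may share some of the handling. In RNA of whole cultures, a change within each cell cannot be told apart from a change in the share of cells in a given state.

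Yeast takes up glucose by facilitated diffusion through the Hxt transporters, which differ in affinity, so that cells exchange low-affinity carriers for high-affinity ones as glucose runs down. Snf3 and Rgt2 resemble transporters but act as plasma membrane receptors of low and of high glucose, and their signal leads to the degradation of Mth1 and Std1, which hold the repressor Rgt1 on HXT promoters. A second branch works through the repressor Mig1 and its relative Mig2, which keep genes for the use of poor carbon sources, and several HXT genes and MTH1, low while glucose is plentiful.

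All values are log2 ratios of sample over reference after print-tip loess, and a gene was called where limma gave a Benjamini-Hochberg adjusted p below 0.05 over 5326 probes together with more than 1.7-fold change. The log2 ratios of arrays a and b of a condition correlated across probes at between 0.939 and 0.991. Median intensities of gene spots were 210 to 527 in Cy5 and 195 to 394 in Cy3. Each of the 8 genes was above background, as defined below, in both channels on all 22 arrays. The lowest correlation between arrays of the same dye orientation was -0.406. It joined heat shock at 5 min with cold shock at 45 min, for which the labels give the dyes. As a check of the labels, the 4 alpha-specific genes MF(ALPHA)1, MF(ALPHA)2, STE3 and SAG1 were above background on all 22 arrays, as were 4 of 5 a-specific ones, whose mean log2 intensities were 5.98 to 7.10. Of the 4 marker genes that BY4742 carries as deletions, LEU2 and URA3 were above background in the sample channel of 14 and 12 arrays. The probes of the other two, HIS3 and LYS2, were above background on all 22, at mean log2 intensities of 7.90 and 6.83, so they were not seen as absent. The chaperone gene SSA4 reached a log2 ratio of 5.70 on a heat shock array. Behind the p-values is the spread within array pairs, pooled over conditions, which is between cultures by the submitters' design text and may be technical by the study's methods. They also leave out the spread of the common reference itself. Precision is limited by having 2 arrays a condition.

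The transporter genes split in time and by direction. Within 5 min of the shift to 37 °C, HXT2, HXT4, HXT5, HXT6 and MTH1 were all higher than in the reference, HXT1 was at the reference level and the sensor genes were less than 1.5-fold from it. By 15 min HXT4 and MTH1 had come back most of the way, HXT5 had risen further and HXT1 had fallen, and by 30 min HXT2 lay below the reference. After the opposite shift, to 30 °C, HXT2 alone of the 8 was called, and it was called at every time.

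Counted over genes, 5 of 8 were called at 5 min of heat shock, all higher, where 12.9% of all probes were called in either direction. At 15 min 3 were called, 2 higher and 1 lower, against 18.3% of probes, at 30 min 2 (1 each way) against 14.7%, at 45 min 2 (1 each way) against 5.95%, and at 60 min 1, higher, against 5.14%. The median log2 ratio of the 8 genes was 1.29 at 5 min, with a median of -0.000949 over all probes, and 0.22 at 15 min, with -0.00187 over all probes. From 30 min on it was between -0.17 and -0.09. The range about these medians was wide, from -0.03 for HXT1 to 2.38 for HXT6 at 5 min. At 15 min it ran from -1.29 for HXT1 to 3.25 for HXT5. The 8 genes thus did not move as a group at either time.

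**Figure D1:**
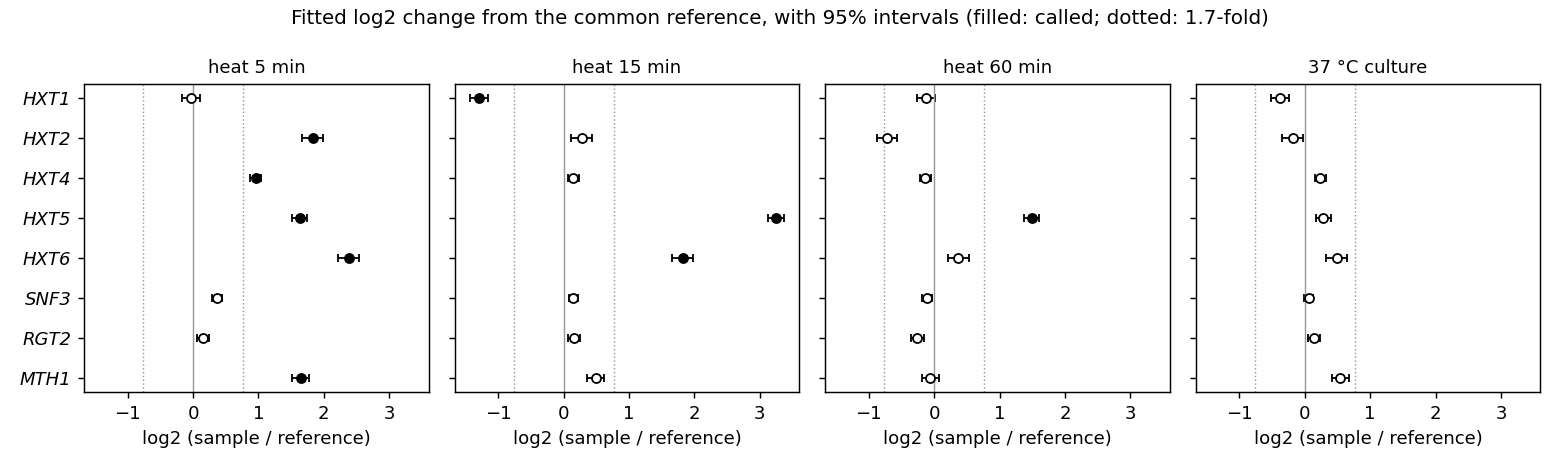
Fitted log2 ratio of sample over reference (horizontal axis) with 95% intervals for the 8 genes after 5, 15 and 60 min of heat shock and in the 37 °C culture, with filled points for called genes and dotted lines at 1.7-fold. HXT2, HXT4, HXT5, HXT6 and MTH1 stand to the right at 5 min, HXT1 is to the left and HXT5 and HXT6 to the right at 15 min, and HXT5 alone is called at 60 min.

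In the 37 °C culture, which had grown at that temperature rather than been shifted to it, 0 of the 8 genes were called in limma's test against the reference, where 3.38% of probes were. At an unadjusted p below 0.05 there were 7, which also passed the adjusted p, as did 68.7% of all probes, so it was the fold threshold that none of them met. The values ran from -0.38 for HXT1 to 0.54 for MTH1. After cooling this culture, 1 of 8 was called at each time, HXT2, while 6.14% of probes were called after 5 min, 8.17% after 15 min, 5.86% after 30 min, 5.22% after 45 min and 4.36% after 60 min. Against the common reference, 1 of 8 was called after 60 min at 30 °C, again HXT2, beside 2.48% of probes. The comparisons of both shifts share the 37 °C culture or the reference and are not independent of each other.

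**Figure D2:**
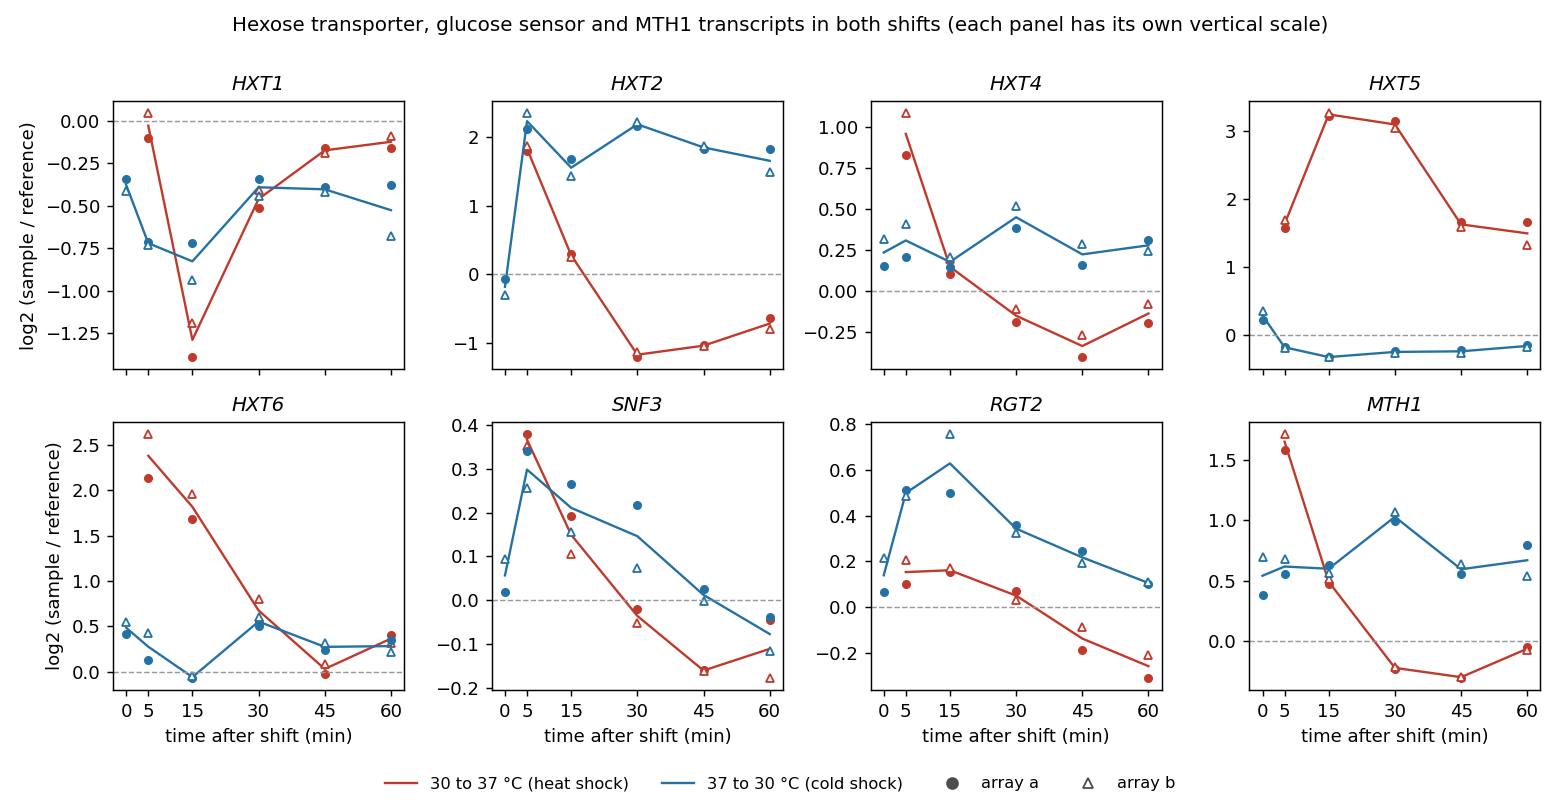
Log2 ratio of sample over reference against the time after the shift, for heat shock in red and cold shock in blue, with filled circles for array a, open triangles for array b and lines through their means. Each panel has its own vertical scale. HXT2 is at 1.43 or above on every array after cooling and at -1.21 and -1.14 after 30 min at 37 °C, HXT5 is at 1.32 or above on every heat shock array, and the sensor genes span the narrowest ranges.

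The glucose sensor genes spanned the narrowest ranges of the 8 over the 11 conditions, though not the smallest changes at each time. SNF3, the receptor of low glucose, was called in 0 of 14 comparisons by limma, of which 9 passed the adjusted p alone and 10 an unadjusted p below 0.05. Its mean log2 ratio was highest at 5 min of heat shock, with 0.38 on array a and 0.35 on array b, and lowest at 45 min, with -0.16 on both arrays. Among the 11 conditions in order of level, none of the 10 neighbouring pairs differed by an interval that left out 0, so only conditions further apart in that order could be told apart.

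RGT2, the receptor of high glucose, was also called in 0 of 14 comparisons, of which 10 passed limma's adjusted p and 11 an unadjusted p below 0.05. It was highest after 15 min of cold shock, with 0.50 on array a and 0.76 on array b, and lowest after 60 min of heat shock, with -0.31 and -0.21. Relative to the 37 °C culture, at 0.07 and 0.21, RGT2 stood 0.49 higher after 15 min at 30 °C (SE 0.0634, limma adjusted p = 5.95e-06), and both cooled arrays lay above both of the culture. That is 1.40-fold and below the fold threshold. Over the whole series RGT2 spanned 1.85-fold and SNF3 1.44-fold. Scaled on the external control spots, the heat shock values at 60 min turned to 0.07 for RGT2 and 0.13 for SNF3, from -0.26 and -0.11.

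MTH1, the corepressor that acts with Rgt1, rose sharply and for a short time. On heat shock its log2 ratio was 1.58 on array a and 1.71 on array b at 5 min, 0.47 and 0.51 at 15 min, -0.23 and -0.21 at 30 min, -0.30 and -0.29 at 45 min, and -0.05 and -0.07 at 60 min. The 5 min arrays lie far above all later ones, with no overlap. The rise of 1.65 at 5 min (SE 0.0609, 3.13-fold, limma adjusted p = 6.27e-13) was its only call in 14 comparisons, and the drop from 5 to 15 min was -1.16 (95% interval -1.34 to -0.97). The reference signal of the MTH1 probe was low, between 65.0 and 161 with no background subtracted, and sample signals ran from 103 to 687.

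In the 37 °C culture MTH1 was at 0.38 and 0.70 on arrays a and b, with a mean of 0.54 that was below the fold threshold. After cooling it read 0.56 and 0.68 at 5 min, 0.63 and 0.56 at 15 min, 0.99 and 1.06 at 30 min, 0.55 and 0.64 at 45 min, and 0.80 and 0.54 at 60 min on arrays a and b. The 30 min arrays stand above all other cold shock arrays. Their difference from the 37 °C culture was 0.49 (SE 0.0862, limma adjusted p = 0.000151), 1.40-fold. At the other 4 cold shock times the interval of the difference held 0. After 60 min at 30 °C MTH1 was 0.67 above the common reference, not called, and called at 0.83 when cold shock array b of that time was left out. With the 37 °C culture as baseline, the heat shock value at 45 min was -0.84 and called, where it was -0.30 against the reference.

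HXT1, a low-affinity carrier that glucose induces, was the only measured transporter called lower at 15 min of heat shock. Its log2 ratio was -0.10 on array a and 0.04 on array b at 5 min, -1.39 and -1.19 at 15 min, -0.51 and -0.41 at 30 min, -0.16 and -0.19 at 45 min, and -0.16 and -0.09 at 60 min. The 15 min arrays are below every other array of the series. The fall at 15 min was -1.29 (SE 0.0651, 2.45-fold, limma adjusted p = 2.24e-11), and the step back up from 15 to 30 min was 0.83 (95% interval 0.63 to 1.03). At 30 min the value of -0.46 was not called, but was -0.94 and called with no within-array curve and -0.98 and called with scaling on the external control spots.

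In the 37 °C culture HXT1 was at -0.34 and -0.41 on arrays a and b. After cooling it read -0.71 and -0.73 at 5 min, -0.72 and -0.94 at 15 min, -0.34 and -0.44 at 30 min, -0.39 and -0.42 at 45 min, and -0.38 and -0.68 at 60 min. The arrays of 5 and 15 min lie below those of the 37 °C culture, by 0.34 and 0.45 in the means, and these differences passed limma's adjusted p (0.00427 and 0.000485) but not the fold threshold. At 30 and 45 min the arrays were close to the culture again. At 60 min array b lay below both arrays of the culture and array a between them. The intervals of the difference held 0 at these 3 times. All 6 cold shock conditions were below the reference. For the 37 °C culture that value of -0.38 became -0.80, and called, with scaling on the control spots.

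HXT2, a carrier of higher affinity that is induced when glucose is low, was called in 10 of 14 comparisons, 7 higher and 3 lower. On heat shock it read 1.79 and 1.87 on arrays a and b at 5 min, 0.30 and 0.26 at 15 min, -1.21 and -1.14 at 30 min, -1.03 and -1.05 at 45 min, and -0.64 and -0.80 at 60 min. HXT2 thus crossed the reference by 30 min, from 3.55-fold above it at 5 min to 2.26-fold below it at 30 min, with array pairs that do not overlap between these times. In limma's test the rise at 5 min was 1.83 (SE 0.0737, adjusted p = 1.74e-12), and the value at 30 min was -1.17 (adjusted p = 4.3e-10).

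The lower level lasted through 45 min, when HXT2 was at -1.04 (limma adjusted p = 4.26e-09) and ranked 42 from the lowest of 5326 probes. At 60 min it was at -0.72 and not called. That last value was called at -0.81 with global loess, at -0.93 with no within-array curve and at -0.78 without heat shock array a of 60 min. From 45 to 60 min HXT2 rose by 0.32 (95% interval 0.10 to 0.54).

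After the shift to 30 °C the same gene rose at once and stayed high. The 37 °C culture was at -0.07 and -0.30 on arrays a and b, and the cooled cells were at 2.12 and 2.35 at 5 min, 1.67 and 1.43 at 15 min, 2.16 and 2.21 at 30 min, 1.83 and 1.86 at 45 min, and 1.82 and 1.48 at 60 min. All 10 arrays of cooled cells lie above both arrays of the culture, with no overlap. Relative to the culture, the differences were 2.42, 1.74, 2.37, 2.03 and 1.84 in order of time (SE 0.104), or 5.34-fold at 5 min and 3.58-fold at 60 min, with limma adjusted p between 3.76e-11 and 1.13e-09.

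Among the rises of all 5326 probes after cooling, HXT2 ranked 2 after 5 min, 3 after 15 min, 2 after 30 min, 5 after 45 min and 6 after 60 min. The course was not flat, with a drop of -0.68 from 5 to 15 min (95% interval -0.90 to -0.46) and a return by 0.63 from 15 to 30 min (0.41 to 0.85). Against the common reference, cells held for 60 min at 30 °C had HXT2 at 1.65 (SE 0.0737, limma adjusted p = 6.44e-11), rank 2 of 5326. Early heat shock and early cold shock samples were thus both high in this gene, at 1.83 and 2.23 relative to the shared reference, and the later ones lay on opposite sides of it, at -1.04 and 1.85 after 45 min.

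HXT4, a carrier that is also induced at low glucose, moved less. On heat shock it read 0.83 and 1.08 on arrays a and b at 5 min, 0.10 and 0.19 at 15 min, -0.19 and -0.11 at 30 min, -0.40 and -0.27 at 45 min, and -0.19 and -0.08 at 60 min. The 5 min arrays are above every other array of the series. This rise of 0.96 (SE 0.0393, 1.94-fold, limma adjusted p = 2.16e-12) was its only call, and with the 37 °C culture as baseline it was 0.72 and not called. Cold shock arrays were between 0.15 and 0.52, including those of the 37 °C culture at 0.16 and 0.32, and none of the cold shock times was called. On the external control spots HXT4 was at -0.41 after 15 min at 37 °C, where it was at 0.15 after print-tip loess. Its mean log2 intensity of 11.27 was above that of the brightest control probe, 10.8, where the control curve was held level.

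HXT6, a high-affinity carrier that high glucose represses, had the largest rise of the 8 genes at 5 min of heat shock. It read 2.14 and 2.62 on arrays a and b at 5 min, 1.68 and 1.96 at 15 min, 0.55 and 0.81 at 30 min, -0.02 and 0.09 at 45 min, and 0.41 and 0.32 at 60 min. Arrays a and b were further apart at 5 min than at any other time for this gene. The arrays of 5, 15, 30 and 45 min do not overlap one another. In limma's test the values of 2.38 at 5 min (SE 0.0764, 5.21-fold, adjusted p = 1.1e-13) and 1.82 at 15 min (3.53-fold, adjusted p = 2.17e-12) were called.

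The size and timing of the HXT6 change depended on how the arrays were normalised. Its spots were bright, with a mean log2 intensity of 12.72 and 2 of 44 spots above 32768, the limit over which spots were left out of the curve. Print-tip loess placed 15 min below 5 min, by -0.56 (95% interval -0.79 to -0.33), while global loess gave 2.42 at 5 min and 2.84 at 15 min, and no curve gave 2.10 at both. At 30 min the value was 0.68 and not called after print-tip loess, but was called at 0.87 on control spots, 0.91 with no curve, 1.55 with global loess and 1.84 in the deposited ratios. At 60 min it was 0.37 and not called, against 0.89 with global loess and 1.11 in the deposited ratios, both called.

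**Figure D3:**
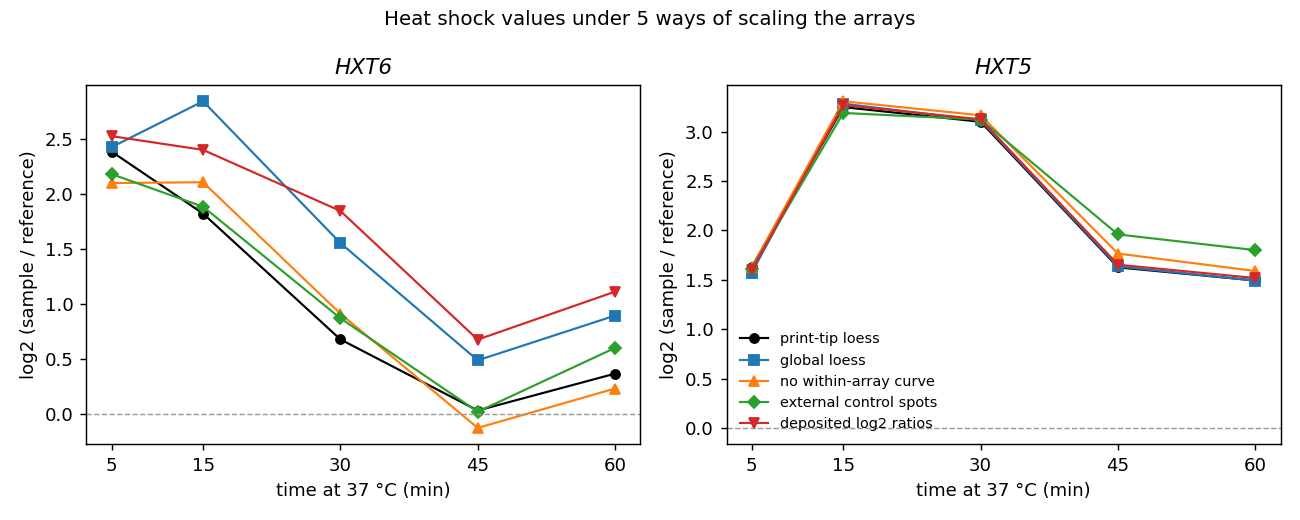
Log2 ratio of sample over reference of HXT6 and HXT5 against the time at 37 °C, as the mean of 2 arrays, under 5 ways of scaling the arrays. The HXT6 lines spread from 0.68 to 1.84 at 30 min, and the HXT5 lines from 3.19 to 3.31 at 15 min and from 1.49 to 1.80 at 60 min.

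Cold shock values of HXT6 were closer to the reference. The 37 °C culture was at 0.42 and 0.55 on arrays a and b, and cooled cells were at 0.13 and 0.42 at 5 min, -0.07 and -0.05 at 15 min, 0.51 and 0.60 at 30 min, 0.24 and 0.31 at 45 min, and 0.35 and 0.22 at 60 min. The 15 min arrays are the lowest of these. That value differed from the culture by -0.54 and was not called, and the deposited ratios gave -0.77 and a call. From 15 to 30 min HXT6 went up by 0.61 (95% interval 0.38 to 0.84). HXT1, HXT2, HXT4 and MTH1 also rose over this step, and RGT2 fell.

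HXT5, a carrier of intermediate affinity known for its expression in slowly growing and starved cells rather than for a response to the glucose level, was called at all 5 heat shock times. It read 1.58 and 1.68 on arrays a and b at 5 min, 3.23 and 3.27 at 15 min, 3.15 and 3.05 at 30 min, 1.66 and 1.59 at 45 min, and 1.67 and 1.32 at 60 min. The arrays of 15 and 30 min lie above all others, and every heat shock array is above every cold shock array. At 15 min the rise was 3.25 (SE 0.0547, 9.50-fold, limma adjusted p = 4.9e-17), rank 37 of 5326, and at 30 min 3.10, rank 25.

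The peak of HXT5 came later than those of HXT2, HXT4 and MTH1. From 5 to 15 min it gained 1.62 (95% interval 1.45 to 1.78), while HXT2, HXT4 and MTH1 changed by -1.55, -0.81 and -1.16 over the same step. The difference between 15 and 30 min, -0.15, had an interval that held 0 (-0.31 to 0.02), and from 30 to 45 min HXT5 dropped by 1.47 to a level of 1.63. Levels at 5, 45 and 60 min, at 1.63, 1.63 and 1.49, did not differ between neighbours. The reference signal of this probe was low, between 66.2 and 210 on median backgrounds of 41.7 to 51.6, and sample signals ran from 64.3 to 1980.

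In the 37 °C culture HXT5 was at 0.22 and 0.34 on arrays a and b. After cooling it read -0.18 and -0.19 at 5 min, -0.33 on both arrays at 15 min, -0.24 and -0.27 at 30 min, -0.23 and -0.27 at 45 min, and -0.15 and -0.18 at 60 min. All 10 arrays of cooled cells lie below those of the culture. The differences were -0.47, -0.61, -0.54, -0.53 and -0.45, each past limma's adjusted p (4.4e-06 to 0.000139) and none past the fold threshold. Sample signals of this probe went down to 64.3, on median backgrounds of 41.7 to 51.6 that were not subtracted. A larger fall may therefore not have been visible. Neighbouring cooled samples did not differ in level.

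Cells after 60 min at 37 °C were then compared with cells after 15 min, which asks how far the early response had changed. Of the 8 genes 4 were called, 1 higher and 3 lower, against 10.7% of probes. HXT1 went up by 1.17 (SE 0.0920, limma adjusted p = 1.8e-08), from -1.29 to -0.12. HXT5 came down by -1.76 (adjusted p = 2.93e-11), HXT6 by -1.45 (9.23e-09) and HXT2 by -0.996 (4.54e-07), again in limma's test. HXT2 moved from just above the reference to below it, HXT6 most of the way back to it, and HXT5 remained 2.81-fold above it. The level of HXT6 at 60 min depended on the normalisation, at 0.89 with global loess and 1.11 in the deposited ratios, both called. Scaled on control spots, the HXT2 difference was -0.58 and not called.

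Cells shifted to 37 °C for 60 min can also be set against the culture that had grown at 37 °C. Here 1 of 8 genes was called, against 1.73% of probes. HXT5 was at 1.67 and 1.32 after 60 min of heat shock and at 0.22 and 0.34 in the culture, a difference of 1.21 (SE 0.0774, 2.32-fold, limma adjusted p = 2.19e-08) and rank 21 among the rises of 5326 probes. MTH1 differed by -0.60 and HXT2 by -0.54, both past limma's adjusted p (5.68e-05 and 0.000744) and not the fold threshold.

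HXT4 and MTH1 had the most similar patterns of any pair of the 8 genes. Their condition means correlated at Pearson's r = 0.987 over 11 conditions, and at 0.982 over 10 when the 5 min heat shock sample was left out. Each was the other's closest match among all probes with a symbol. HXT2 correlated with MTH1 at 0.81 and with HXT4 at 0.76, and with HXT5 at -0.69. All conditions share 1 reference, and these coefficients are descriptions.

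**Figure D4:**
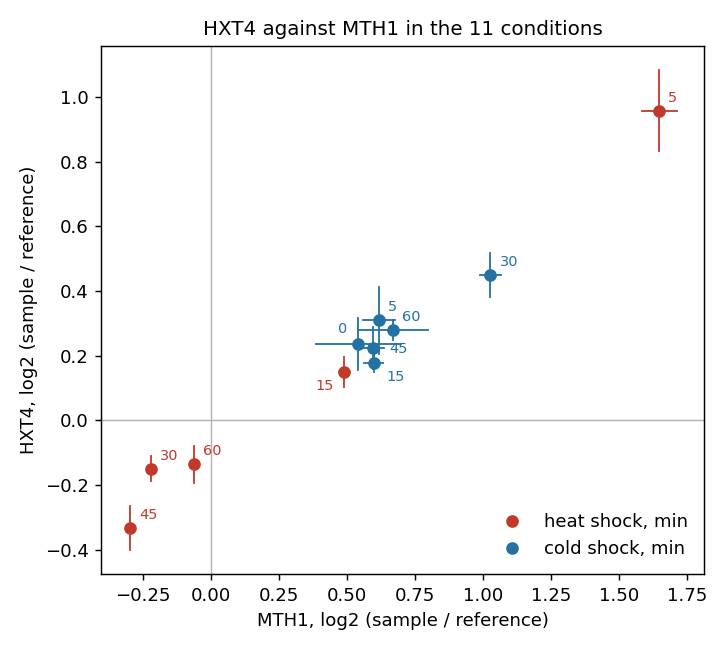
Mean log2 ratio of HXT4 (vertical axis) against that of MTH1 (horizontal axis) in the 11 conditions, with lines from array a to array b and the time in min beside each point, heat shock in red and cold shock in blue. The points rise from heat shock at 45 min, at -0.30 for MTH1 and -0.33 for HXT4, to heat shock at 5 min, at 1.65 and 0.96.

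Outside the set, the 2 genes with the condition means most like HXT5 were COX16, for cytochrome oxidase assembly (r = 0.997, with a highest mean of 0.48), and HBT1, a gene of polarised growth (0.994, highest mean 2.47), both over 11 conditions. For HXT6 they were GIS1, a transcription factor of nutrient limitation (0.982), and GLG1, which primes glycogen synthesis (0.968). The matches of HXT2 were the maltose permease gene MAL31 (0.977) and SUT1, a transcription factor of sterol uptake (0.960). Their highest means were 0.26 and 0.24, where that of HXT2 was 2.23, since the correlation does not compare the size of changes. PHD1, a transcription factor of pseudohyphal growth, followed MTH1 as the next match of HXT4 (0.960), and YAP1802 followed HXT4 as that of MTH1 (0.951). SNF3 was closest to SNA4 (0.959) and MAL33 (0.936), and RGT2 to SWR1, a chromatin remodeller (0.955), and TAF2, a subunit of TFIID (0.954). HXT1 had the weakest matches, the phenylalanyl-tRNA synthetase gene FRS2 (0.883) and ARP4 (0.875).

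Other genes of the glucose signalling pathway came from a list. Of 15 measured, 1 was called higher after 5 min of heat shock, where 12.9% of all probes were called, and 2 lower after 15 min, where 18.3% were. These counts are no larger than the share over all probes, and the list medians were 0.11 and 0.01. MIG2, a repressor gene that is itself induced by glucose, was at -0.99 and -1.06 on arrays a and b at 15 min (mean -1.03, limma adjusted p = 8.2e-08). At 30 min 2 of the list were called lower, MIG2 at -1.38 and MIG3 at -0.78, beside 14.7% of all probes. At 45 and 60 min MIG2 alone of the list was called, at -1.54 and -1.31, beside 5.95% and 5.14% of all probes. After cooling MIG2 was 1.00 above the 37 °C culture at 15 min (SE 0.141, limma adjusted p = 1.36e-05) and 1.42 above it at 30 min.

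MIG3, a relative of MIG1 and MIG2, was at -0.95 on array a and -0.96 on array b after 15 min of heat shock (limma adjusted p = 2.69e-11). MIG1, the main repressor of this branch, was the gene called at 5 min, at 0.90 (limma adjusted p = 7.28e-12). RGT1, which encodes the DNA-binding partner of Mth1, was just under the fold threshold at that time, at 0.76 (limma adjusted p = 2.01e-09). In the 37 °C culture 1 of the 15 was called, beside 3.38% of all probes. It was YCK2, a kinase gene of the sensor pathway, at -0.79. These 3 genes, MIG1, RGT1 and YCK2, were named after their values were seen.

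Of 7 genes known as targets of Mig1, 2 were called at 15 min of heat shock, both higher, beside 18.3% of all probes called in either direction, and the list median was 0.23 against -0.00187 over all probes. HXK1, the hexokinase gene that glucose represses, was at 5.06 and 4.86 on arrays a and b (mean 4.96, SE 0.0725, limma adjusted p = 1.54e-17), and CAT8, an activator gene of growth on poor carbon sources, at 1.27. HXK1 was already at 4.23 after 5 min and still at 2.40 after 60 min. It stood at 1.69 in the 37 °C culture and was -3.20 relative to that culture after 15 min at 30 °C (limma adjusted p = 1.18e-12). The other 5 genes of this list were not called at 15 min of heat shock, and its lowest value then was -0.02. Among these, SUC2 stayed between -0.22 and 0.44 on every array of the series. GAL1, another of them, was above background on 13 of 22 arrays in the sample channel.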

How the data were processed

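The authors hybridised amplified RNA to spotted oligonucleotide arrays and deposited scanner files with the mean intensity of 15552 spots in each channel and no background subtracted. The authors also deposited log2 ratios normalised by print-tip loess with a dye correction per gene, used here as an alternative after turning the sign of 3 of 22 arrays, which was opposite to that of the scanner signals. Their table of comparisons (fold changes and p-values, for which limma 2.12.0 is named in the submitters' processing notes) was not used.

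In R 4.3.3 with limma 3.58.1, log2 ratios were computed by print-tip loess over 48 blocks (span 0.4), with control spots and spots above 32768 at weight 0, and each probe's 2 spots were averaged. lmFit and eBayes were run on all 22 arrays with 11 conditions and a dye term, and p-values were adjusted over 5326 probes with a symbol. A probe counted as above background where either of its 2 spots exceeded the background by more than 2.6 background SDs. Intervals of 95% are not adjusted for the number of comparisons. Of 6388 gene probes 1062 had no symbol, and 58 symbols were updated through RefSeq's table of assembly R64, which was used for names alone. The 14 comparisons and the alternatives (normalisation, background, baseline, thresholds, dye term, arrays left out) are those of the closing section. The fit was tested on simulated data.

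The letters a and b mark the dye. Deviations of same-letter arrays correlated between conditions at between -0.127 and 0.814 (median 0.355). Since the letter is also the dye, these values cannot tell a pairing across conditions from a dye effect of each gene.

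The 10 genes and the lists were chosen with earlier results of these data known. Named besides them were, from each list, up to 2 called genes each way with the largest change at 15 min of heat or cold shock, and for each of the 8 measured genes the 2 most alike over conditions. Named outside this rule were MIG1, RGT1, YCK2, HXT8, HXT9, HXT11, SUC2 and GAL1, and the genes of the label check.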

Additional observations from a re-analysis of the deposited data

Results flagged for a closer look

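The direct test of 60 against 15 min at 37 °C called 4 of the 8 genes, past limma's adjusted p and 1.7-fold, where 10.7% of all probes were called. All 8 passed the adjusted p alone, as did 68.8% of probes. Of the 4, HXT1 was 1.17 higher on the log2 scale at 60 min, and HXT2, HXT5 and HXT6 were lower, with values of -0.996, -1.76 and -1.45. They are differences within 1 shift, in which the common reference cancels.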

How the results depend on the processing

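No called value turned its direction under any of the alternatives run. Without the replicate block, here the dye term, 3 genes were called at 15 min of heat shock, as with it, and the other counts were also unchanged. Both dyes are present in every condition, so leaving out this term could alter the p-values but no log2 change. Normexp background correction changed none of the 14 counts. It was a mild change, since an offset of 50 was added back, near the median backgrounds of 41.7 to 51.6. Leaving out dim probes also changed none, but it could not remove any measured gene of the set. All of these were above background on all 22 arrays. Global loess gave 3 called genes at 60 min of heat shock in place of 1. No within-array curve gave 4 in place of 2 at 30 min and 2 in place of 1 at 60 min. Scaling on external control spots gave 4 at 30 min and 1 in place of 0 in the 37 °C culture. HXT1 and HXT6, which were added there, have mean log2 intensities of 12.2 and 12.72, above the brightest control probe at 10.8. It also moved the median of all probes to 0.20 at 45 and at 60 min of heat shock, 0.27 for 60 against 15 min and 0.17 for 60 min against the 37 °C culture. The deposited ratios gave 2 at 60 min of heat shock and 2 after 15 min of cold shock. The cause of these changes was not tested.

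With the adjusted p alone, the counts were 8 at 15 min of heat shock, 6 at 30 min, 7 at 45 min and 6 at 60 min, 7 in the 37 °C culture, 5, 6, 5, 2 and 3 at the 5 cold shock times, 6 for 60 min at 30 °C against the reference, 8 for 60 against 15 min of heat shock and 7 for 60 min of heat shock against the 37 °C culture. Over all probes the share past the adjusted p alone was 83.2%, 82.4%, 74.5% and 71.0% from 15 to 60 min of heat shock, 68.7% in the culture, 59.4% to 66.8% after cooling, and 63.7%, 68.8% and 44.7% in the last 3 comparisons, so these counts say little about the 8 genes. A 1.5-fold threshold gave 2 in place of 1 at 60 min of heat shock, 15 min of cold shock, 60 min at 30 °C against the reference and 60 min of heat shock against the culture. Leaving out single arrays gave 1 to 2 called genes at 60 min of heat shock (HXT2 added without array a) and 1 to 2 for 60 min at 30 °C against the reference (MTH1 added without array b). All other counts stayed within 1.5 times. With 1 array left in a condition, its spread was taken from the other conditions.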

Other observations

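Of 10 further genes of the hexose transporter family, 9 had a probe, and 1 was called in any of the 14 comparisons, at 5 min of heat shock, where 12.9% of all probes were called. HXT11, a transporter gene of the family that is best known from drug resistance, was at 0.67 on array a and 0.90 on array b after 5 min of heat shock (mean 0.78, SE 0.0353, limma adjusted p = 7.07e-12). It was named after its value was seen. Its close relative HXT9 was at 0.66 at that time, and the near-identical sequences of such genes mean that their probes may share signal. HXT8 was at -0.70 after 15 min of heat shock and at -0.70 in the 37 °C culture, just under the fold threshold. At 15 min of heat shock 0 of the 9 were called in limma's test, beside 18.3% of all probes, and 7 had an unadjusted p below 0.05, with a list median of 0.07.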
